A study of Mus musculus with 16 samples.

Results

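Bone marrow-derived macrophages (BMDMs) of C57BL/6J mice aged 8 weeks were matured for 7 days with GM-CSF (GM) or M-CSF (M) on tissue culture treated (TC) or untreated (noTC) polystyrene dishes. The comparison described here asked whether the change between dishes was the same under both growth factors. It used the 8 libraries of cells that got no LPS, 2 from each pairing of growth factor and dish (GM-TC, M-TC, GM-noTC, M-noTC), out of 16 libraries in the series, and the other 8 came from the same 4 kinds of culture after 3 h of LPS. No genetic change is named for any group. The labels name no sorting of cells, so that a change in the share of a cell type and a change in RNA per cell cannot be told apart. For each gene, the dish effect was the log2 difference of noTC minus TC, and the interaction was the dish effect in M minus the dish effect in GM. Genes were taken when their mean CPM, the count relative to the library total, was 1 or more in each of the 4 groups, which left 10367 genes of 22287 in the table. A positive interaction means that the noTC level, relative to TC, was higher in M than in GM.

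GM-CSF and M-CSF both drive bone marrow progenitors to macrophages through separate receptors. M-CSF, through the kinase CSF1R, is the growth and survival factor of tissue macrophages and keeps the cells dividing, whereas GM-CSF yields adherent cells that share genes with dendritic cells and alveolar macrophages, such as Itgax (CD11c), Pparg and the MHC class II genes. Treated polystyrene is hydrophilic and favours attachment through integrins, and the untreated surface is hydrophobic and holds cells more weakly.

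The libraries held between 17527802 and 31458363 counts, and a count of 3 corresponded to 0.0954 to 0.171 CPM. Csf1r, Cd68, Spi1, Adgre1 and Lyz2, which define macrophages, were high in all 8 libraries, Csf1r at 900.5 to 985.3 CPM in GM and 3025 to 4019 CPM in M. Neutrophil and granule genes summed to 1679 to 1896 CPM in the GM libraries and 79.5 to 88.0 CPM in the M libraries, and edgeR called none of their 7 members in the interaction (up to 3 without GM-TC replicate 1). Some features of the libraries ran along the dish. The GM-TC pair was the least alike, with a median absolute log2 difference of 0.134 between its 2 libraries against 0.0606 to 0.0690 in the other 3 groups. Heart and muscle genes summed to 348.3 to 455.1 CPM in the TC libraries and 309.0 to 330.9 CPM in the noTC libraries, but only 3 of the 33 reached the CPM minimum. Some genes were nearly silent on TC under a growth factor and strong on average over 10 other libraries, 8 of them with LPS. In the noTC libraries of that growth factor they were found at a small share of that average. The median share was 0.675% in GM (15 genes) and 0.60% in M (19 genes). For single genes the share ran from 0.39% to 0.907% in GM and from 0.0084% to 0.845% in M. The median of each cell type was subtracted from all genes, so that the subtracted value of a single gene is approximate. The origin of the share was not tested. Each named gene below whose interaction lost its call, turned its sign or changed in size by over 1.5 times when this share was subtracted is given with and without it. Of the neutrophil and granule genes, 1 was then called as negative, and their median interaction went from -0.02 to -0.40.

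The dish effect differed between GM and M for 1088 of the 10367 genes (adjusted p under 0.05, edgeR quasi-likelihood test), 10.5% of them, beside 9.58% over all 12142 genes tested. The interaction was positive for 606 (5.3% of all genes tested were) and negative for 482 (4.28%). These are the shares to set beside every count of called genes in a list below. The lists were chosen with earlier results of these data known. Which sign was the more frequent depended on the fit, with 534 positive and 547 negative with DESeq2 size factors, 361 and 402 with DESeq2, 746 and 831 without an expression filter, and 1282 and 1646 without GM-TC replicate 1. Most were of moderate size, with a median absolute interaction of 0.52 on the log2 scale, and 122 reached 1 or more, 67 of them positive. In M, 2869 genes passed the test for a dish effect, 1652 higher and 1217 lower on noTC (25.9% of all genes tested), and in GM 614 genes did, 397 higher and 217 lower (6.37%, of which 2.36 percentage points were lower). With DESeq2 the GM split was 325 higher and 108 lower. Accordingly, 815 of the 1088 genes had a dish effect past the test in M alone, 100 in GM alone, 80 in both in the same direction, 56 in both in opposite directions and 37 in neither. A dish effect that missed the test in GM is not thereby absent. The GM-TC pair was the least alike (median absolute log2 difference 0.134), and this division depended on the libraries used, as given at the end. In the plot of dish effects, these genes lie mainly along the vertical axis, that is, the estimate was larger in size in M for 919 of them and in GM for 169. Among all 10367 genes, called or not, it was larger in size in M for 6521. Across all 10367 genes the dish effects of GM and M correlated at r = 0.36, as a description over genes that share libraries.

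**Figure D1:**
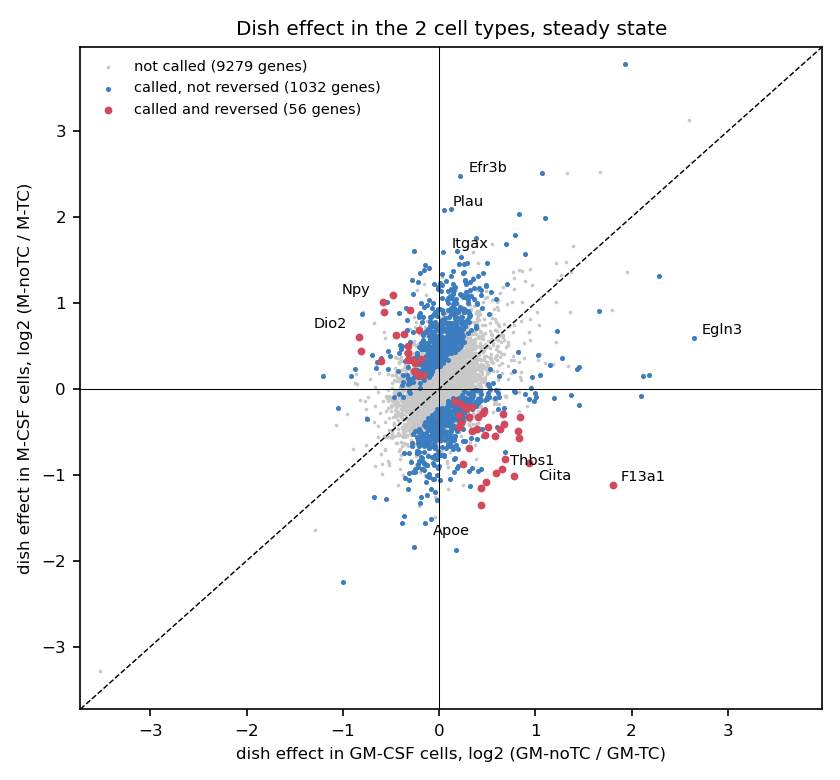
Dish effect at steady state in GM-CSF cells (x axis) against M-CSF cells (y axis), each the log2 ratio of noTC to TC over 2 libraries per group, with 1 point per gene for 10367 genes. Grey points did not pass the test for a difference between cell types, blue points did (1032 genes), and red points passed it and moved in opposite directions (56 genes). The dashed line marks equal dish effects, and most blue points spread further along the y axis than along the x axis.

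Replication genes moved together. Of 64 genes of DNA replication and S phase, 45 had a positive interaction past the test and none a negative one, and the estimate was positive for all 64. Their median interaction was 0.65, from a median dish effect of 0.16 in GM and 0.86 in M, beside a median interaction of 0.01 over all 10367 genes. The summed level of the list was 1576 and 1549 CPM for GM-TC, 1757 and 1722 CPM for GM-noTC, 2367 and 2391 CPM for M-TC, and 4257 and 4030 CPM for M-noTC. Thus both M-noTC libraries stood above all others, while M-TC already exceeded GM.

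Cdc6, which loads the replicative helicase on origins, measured 7.95 and 8.9 for GM-TC, 9.82 and 9.97 for GM-noTC, 8.36 and 6.07 for M-TC, and 19.8 and 21.8 for M-noTC scaled CPM (TMM scaling, as all levels of single genes below). Only M-noTC stood apart, and the interaction was 1.31 (SE 0.2, adjusted p = 0.00191). Orc1, the largest subunit of the origin recognition complex, measured 5.36 and 4.37 for GM-TC, 5.5 and 5.17 for GM-noTC, 2.79 and 3.13 for M-TC, and 7.66 and 7.64 for M-noTC. Its dish effect was 0.14 in GM and 1.37 in M, an interaction of 1.23 (SE 0.229, adjusted p = 0.00631). For Mcm5, a subunit of the helicase, levels were 32.4 and 31.6 for GM-TC, 40.7 and 34.5 for GM-noTC, 42.4 and 47.4 for M-TC, and 97.8 and 94 for M-noTC, so that the noTC and TC values overlapped in neither cell type, as for 32.6% of all genes tested (45.5% did not overlap in GM and 68.3% in M). The interaction was 0.86 (SE 0.119, adjusted p = 0.000967) for Mcm5, 0.88 (SE 0.0865, adjusted p = 0.000105) for Mcm4 of the same helicase and 1.0 (SE 0.155, adjusted p = 0.00212) for Pole, the catalytic subunit of the leading-strand polymerase. Chaf1b, a subunit of the chromatin assembly factor that deposits histones behind the fork, measured 15.4 and 14.9 for GM-TC, 15.3 and 14.7 for GM-noTC, 11.5 and 10.2 for M-TC, and 24.6 and 24.9 for M-noTC. GM values overlapped between dishes (-0.01), and the interaction was 1.2 (SE 0.129, adjusted p = 0.000179). Ung, the uracil-DNA glycosylase, had the largest interaction of the list, 1.55 (SE 0.302, adjusted p = 0.00802), at only 1.54 to 6.44 scaled CPM, and lost its call without M-TC 1 (highest adjusted p 0.0527). Lig1, the ligase that joins Okazaki fragments, rose on noTC in both cell types, by 0.43 in GM and 1.09 in M, and its interaction of 0.65 (SE 0.126, adjusted p = 0.00743) was lost without GM-noTC 1 (highest adjusted p 0.0561).

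Mitotic genes followed the same direction with smaller differences. Among 64 genes of mitosis and cytokinesis, 29 had a positive interaction past the test and none a negative one, with a median of 0.40 and dish effects of 0.17 in GM and 0.63 in M. Mybl2, a transcription factor of the cell cycle, measured 5.55 and 5.88 for GM-TC, 7.18 and 6.6 for GM-noTC, 6.27 and 7.42 for M-TC, and 17.7 and 17.4 for M-noTC, and its interaction was 1.09 (SE 0.18, adjusted p = 0.00299). Spc25, a subunit of the NDC80 kinetochore complex, measured 16.4 and 15.6 for GM-TC, 16 and 15.9 for GM-noTC, 27.5 and 26.8 for M-TC, and 46.5 and 44.1 for M-noTC. Its values were level between dishes in GM and separated in M, with an interaction of 0.74 (SE 0.106, adjusted p = 0.0012). Dlgap5, a spindle protein, gave 0.73 (SE 0.13, adjusted p = 0.00481), and the kinase Pbk 0.83 (SE 0.179, adjusted p = 0.0133), a call that was lost without GM-noTC 1, M-TC 1, M-TC 2 or M-noTC 2 (highest adjusted p 0.061). In the LPS libraries, which the comparison did not use, 25 replication genes again had a positive interaction past the test and none a negative one, with a median of 0.43, and the mitotic genes had 16 positive, 1 negative and a median of 0.32. The 3-way test of steady state against LPS passed for 5 replication genes and 1 mitotic gene.

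**Figure D2:**
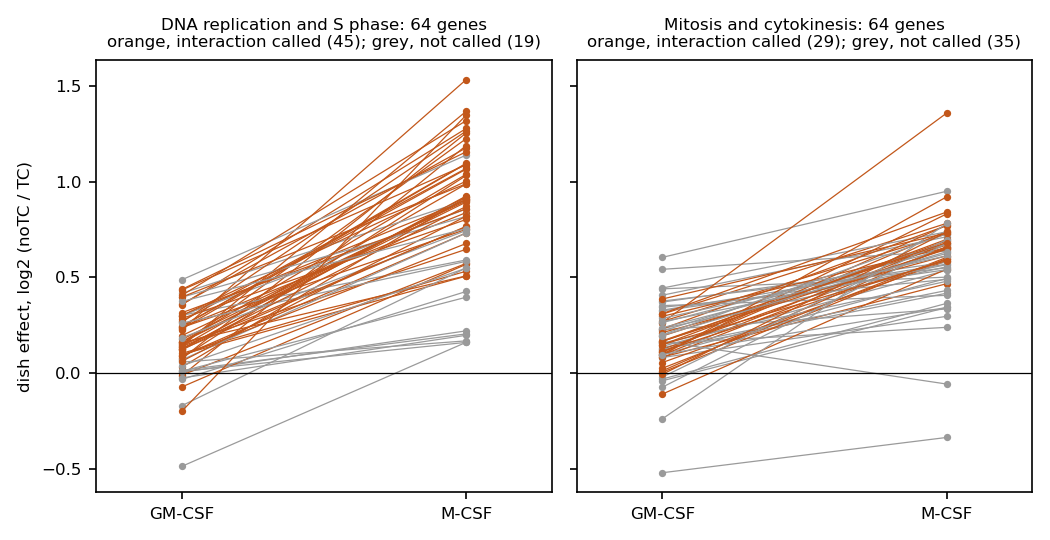
Dish effect (log2 noTC over TC, y axis) in GM-CSF and M-CSF cells, with 1 line per gene, for 64 genes of DNA replication and S phase (left) and 64 genes of mitosis and cytokinesis (right). Orange lines are genes whose dish effect differed between cell types (45 and 29) and grey lines the others. All 64 lines on the left rise from GM to M, as do all but 1 on the right.

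Promoters of these genes are shown because replication genes are known targets of E2F factors and mitotic genes of the DREAM complex, which reads the CHR element. Windows from 250 bases before to 50 bases after the first listed start of each gene were taken from RefSeq on GRCm38.p6, which held 8378 of the 10367 genes by symbol. E2F motifs (TTTCCCGC, TTTGGCGC or TTCCCGCC on either strand, where the first and the last can overlap) were in 39.2% of 51 replication genes, 7.84% of 51 mitotic genes, 6.54% of the 8378 genes and 3.31% of all 27025 promoters. The CHR element TTTGAA on either strand was in 72.5% of the mitotic genes, 13.7% of the replication genes, 12% of the 8378 genes and 18.1% of all promoters. Capitals mark the matches in Mcm5 (chr8:75109259-75109558, plus strand, first base 149 before the start), Cdc6 (chr11:98907901-98908200, plus strand, 138 before) and Spc25 (chr2:69206164-69206463, minus strand, 24 after).
Mcm5: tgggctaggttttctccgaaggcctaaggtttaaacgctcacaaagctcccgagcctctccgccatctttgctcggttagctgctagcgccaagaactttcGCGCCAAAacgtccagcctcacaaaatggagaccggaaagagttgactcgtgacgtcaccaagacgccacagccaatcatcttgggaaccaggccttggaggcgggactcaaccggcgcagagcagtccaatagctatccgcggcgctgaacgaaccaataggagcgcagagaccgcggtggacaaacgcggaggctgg
Cdc6: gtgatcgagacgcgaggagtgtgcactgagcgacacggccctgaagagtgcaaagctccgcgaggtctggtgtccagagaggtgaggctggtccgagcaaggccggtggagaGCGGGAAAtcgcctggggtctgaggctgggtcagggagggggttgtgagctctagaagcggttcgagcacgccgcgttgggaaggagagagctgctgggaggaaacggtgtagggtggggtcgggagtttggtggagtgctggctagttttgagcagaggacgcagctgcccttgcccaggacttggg
Spc25: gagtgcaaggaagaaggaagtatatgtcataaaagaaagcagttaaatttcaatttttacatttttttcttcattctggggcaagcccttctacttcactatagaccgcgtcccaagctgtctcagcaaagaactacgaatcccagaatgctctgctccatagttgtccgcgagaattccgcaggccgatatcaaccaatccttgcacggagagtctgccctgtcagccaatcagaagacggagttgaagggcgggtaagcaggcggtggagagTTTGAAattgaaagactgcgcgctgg
Over the interaction genes as a whole, an E2F motif was in 11.3% of 485 genes with a positive interaction and 3.75% of 373 with a negative interaction. A match describes these letters only and does not show binding.

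Genes of amino acid supply were found on the positive side as well. In the list of ATF4 targets and unfolded protein response genes, 11 of 33 had a positive interaction past the test and 1 a negative one. Asns, the asparagine synthetase, measured 7.13 and 7.44 for GM-TC, 4.94 and 5.95 for GM-noTC, 28.8 and 27.9 for M-TC, and 51.1 and 53.5 for M-noTC. It was higher on noTC in M (0.89) and at -0.42 in GM, which missed the test, and the interaction was 1.3 (SE 0.144, adjusted p = 0.000212). Phgdh, the first enzyme of serine synthesis, measured 32.8 and 35.3 for GM-TC, 26.4 and 26.7 for GM-noTC, 36.7 and 37 for M-TC, and 57.8 and 57.4 for M-noTC and moved in opposite directions, -0.36 in GM and 0.64 in M. The interaction of Shmt2, the mitochondrial serine hydroxymethyltransferase, was 0.75 (SE 0.096, adjusted p = 0.000613), and that of Slc7a5, a transporter of large neutral amino acids, 0.87 (SE 0.123, adjusted p = 0.00115). All 24 sterol synthesis genes had a positive estimate (median 0.17), but only 5 passed the test, and the calls of Fdps, the farnesyl diphosphate synthase, and of Acat2 were lost without any of the 6 libraries other than GM-TC (highest adjusted p 0.125 and 0.157). The positive side of these 2 lists was not repeated after LPS. In the LPS libraries, 5 sterol synthesis genes were negative past the test and none positive (median 0.01). The ATF4 list had 9 positive and 11 negative there (median -0.10). Of the 17 genes of fatty acid synthesis and LXR targets, 3 passed in each direction at steady state. Apoe, the lipid carrier apolipoprotein E, measured 322.6 and 339.0 for GM-TC, 294.9 and 302.0 for GM-noTC, 3224 and 3217 for M-TC, and 1027 and 1156 for M-noTC, a fall on noTC that passed the test in M (-1.56) but not in GM (-0.15), and the interaction was -1.41 (SE 0.0788, adjusted p = 1.46e-06). Abca1, the cholesterol exporter, followed with -0.92 (SE 0.137, adjusted p = 0.00164), whereas Scd1, the stearoyl-CoA desaturase, went the other way with 0.76 (SE 0.0761, adjusted p = 0.00012).

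Several of the largest positive interactions came from genes that were high in GM on both dishes. Plau, the urokinase-type plasminogen activator, measured 300.4 and 321.9 for GM-TC, 326.2 and 318.0 for GM-noTC, 20.3 and 20.3 for M-TC, and 86.4 and 84.8 for M-noTC. GM values overlapped between dishes, M-noTC was 2.08 above M-TC on the log2 scale, and the interaction was 2.03 (SE 0.08, adjusted p = 2.15e-07). Itgax, the integrin alpha chain CD11c, measured 1174 and 1115 for GM-TC, 1183 and 1174 for GM-noTC, 20.4 and 18.4 for M-TC, and 58.4 and 58.5 for M-noTC, with an interaction of 1.55 (SE 0.0787, adjusted p = 7.43e-07). Dcstamp, a membrane protein needed for the fusion of macrophages and osteoclast precursors, measured 53.2 and 56.9 for GM-TC, 61.1 and 59.2 for GM-noTC, 1.79 and 1.12 for M-TC, and 6.7 and 5.76 for M-noTC, and its interaction was 1.96 (SE 0.205, adjusted p = 0.000143). In each of these genes, M-noTC rose above M-TC and stayed far below GM. Efr3b, a membrane anchor of a phosphatidylinositol kinase, had the largest positive interaction of all, 2.26 (SE 0.202, adjusted p = 4.82e-05), from 5.61 and 4.07 for GM-TC, 5.45 and 5.63 for GM-noTC, 10.3 and 8.87 for M-TC, and 55.2 and 51.8 for M-noTC. Here, unlike the genes above, M-noTC exceeded GM. Rgs1, which turns off G protein signaling, measured 75.9 and 90.6 for GM-TC, 71.4 and 68.2 for GM-noTC, 35.2 and 38.1 for M-TC, and 113.4 and 110.1 for M-noTC, with an interaction of 1.86 (SE 0.114, adjusted p = 2.9e-06). None of these 5 calls was lost without any 1 library, and the LPS libraries gave interactions of 1.21 for Plau, 1.36 for Itgax, 1.76 for Dcstamp, 1.45 for Efr3b (adjusted p 0.107) and 0.77 for Rgs1. The 3-way test passed for Plau and Rgs1, whose interactions were smaller after LPS (adjusted p 0.00233 and 0.000379).

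Related lists held such genes in part. Of 16 osteoclast and cell fusion genes, 5 had a positive interaction past the test and none a negative one, among them Ctsk, the collagen-degrading cathepsin K (1.05 (SE 0.127, adjusted p = 0.000414)), and Cd200 (1.25 (SE 0.177, adjusted p = 0.00115)). Of 12 PPARgamma and alveolar-type genes, 4 were positive and 1 negative. Lpl, the lipoprotein lipase, measured 5416 and 5429.8 for GM-TC, 6376 and 6207 for GM-noTC, 2130.5 and 2068 for M-TC, and 4522 and 4539 for M-noTC. It rose on noTC in both cell types and by more in M, with an interaction of 0.90 (SE 0.0511, adjusted p = 1.53e-06). Pparg itself measured 43.9 and 46.5 for GM-TC, 48.6 and 47.1 for GM-noTC, 23.9 and 23.2 for M-TC, and 35.3 and 32 for M-noTC, and its interaction of 0.43 (SE 0.101, adjusted p = 0.0201) was lost without GM-noTC 1, GM-noTC 2, M-TC 1, M-TC 2 or M-noTC 1 (highest adjusted p 0.111). Siglecf, a sialic acid receptor of alveolar macrophages, was barely above the CPM minimum in M-TC (98.5 and 99.7 for GM-TC, 88.8 and 81.3 for GM-noTC, 1.1 and 1.31 for M-TC, and 3.64 and 2.28 for M-noTC) and gave 1.46 (SE 0.274, adjusted p = 0.00641), which was lost without M-TC 1 (highest adjusted p 0.0605). A high GM level was not a general feature of positive interactions. In the TC libraries after LPS, which this contrast did not use, 43.8% of 605 genes with a positive interaction and 43.4% of 479 with a negative interaction were higher in GM than in M, beside 50.2% of all members.

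In the LPS libraries, 7 cytoskeletal genes were positive and 7 negative past the test. At steady state they were positive more often than negative, with 9 and 1 of 35 past the test. Leaving out 1 library gave from 3 and 1 (without GM-noTC 2, M-TC 2 or M-noTC 1) to 19 and 9 (without GM-TC 1). Tuba1a, an alpha tubulin, measured 70 and 78.6 for GM-TC, 82.5 and 83.1 for GM-noTC, 40.7 and 39.8 for M-TC, and 92.5 and 87.1 for M-noTC, an interaction of 1.0 (SE 0.0938, adjusted p = 6.48e-05). Vim, the intermediate filament vimentin, measured 1554 and 1765 for GM-TC, 1659.5 and 1687 for GM-noTC, 733.1 and 770.5 for M-TC, and 1229.7 and 1203 for M-noTC, so that M-noTC moved towards the GM level (0.68 (SE 0.0804, adjusted p = 0.000332)), and Tagln2, an actin-binding protein, gave 0.55 (SE 0.0869, adjusted p = 0.00235). Cnn2, a calponin, was the exception at -0.58 (SE 0.102, adjusted p = 0.00456), with a rise on noTC that passed the test in GM only. Integrins and adhesion genes were divided, 7 positive and 8 negative of 35. Sdc4, a heparan sulfate proteoglycan of focal adhesions, had an interaction of -1.1 (SE 0.112, adjusted p = 0.00012), which became -0.38 (adjusted p 0.0873) once the share of the other libraries was subtracted.

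MHC class II genes were on the negative side. All 7 members had a negative estimate and 5 passed the test, with a median interaction of -0.72 from a dish effect of 0.46 in GM and -0.26 in M. MHC class II molecules present peptides to CD4+ T cells, and CIITA is the coactivator on which their transcription depends. Ciita measured 32.8 and 29.3 for GM-TC, 58.9 and 59.7 for GM-noTC, 13.8 and 15.5 for M-TC, and 7.7 and 8.33 for M-noTC. Thus noTC was higher in GM (0.94) and lower in M (-0.87), and the interaction was -1.8 (SE 0.127, adjusted p = 1.02e-05). H2-Ab1, the beta chain of I-A, measured 205.4 and 235.5 for GM-TC, 329.0 and 329.7 for GM-noTC, 36.8 and 36.8 for M-TC, and 23.6 and 26.6 for M-noTC and went in opposite directions in the same way, with an interaction of -1.12 (SE 0.107, adjusted p = 7.36e-05). H2-Aa, its alpha chain, measured 400.3 and 465.3 for GM-TC, 601.1 and 594.2 for GM-noTC, 62.7 and 68.4 for M-TC, and 51.7 and 57.7 for M-noTC (-0.72 (SE 0.109, adjusted p = 0.00176)), with a small gap between dishes in M. H2-Eb1, the beta chain of I-E, measured 151.0 and 169.3 for GM-TC, 255.3 and 254.7 for GM-noTC, 26.9 and 30 for M-TC, and 22.5 and 26 for M-noTC, where the M values did not pass the test (-0.23) and the interaction was -0.89 (SE 0.115, adjusted p = 0.000613). The calls of these 4 genes held without any 1 library and after the share of the other libraries was subtracted, where the interactions lay between -1.84 and -0.77. After LPS, the same 3 chains had interactions of -0.96, -0.77 and -0.95, and that of Ciita was -0.57, smaller than at steady state (3-way adjusted p 0.0032). H2-Ob was below the CPM minimum in M and is not counted.

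The promoter of H2-Eb1 is shown for the CCAAT box, a motif that class II promoters hold as their Y box. The motif was in 3 of the 4 class II members with a window, beside 39.5% of the 8378 genes. Capitals mark CCAAT on either strand in chr17:34305617-34305916, plus strand, with first bases at -59 and -35 from the start. Whether either match is the Y box was not tested.
H2-Eb1: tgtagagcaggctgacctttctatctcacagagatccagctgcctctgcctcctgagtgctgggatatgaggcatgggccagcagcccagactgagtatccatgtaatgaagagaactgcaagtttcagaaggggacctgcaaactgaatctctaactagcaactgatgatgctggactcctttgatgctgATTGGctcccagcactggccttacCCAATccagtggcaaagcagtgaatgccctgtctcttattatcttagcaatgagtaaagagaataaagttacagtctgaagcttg

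**Figure D3:**
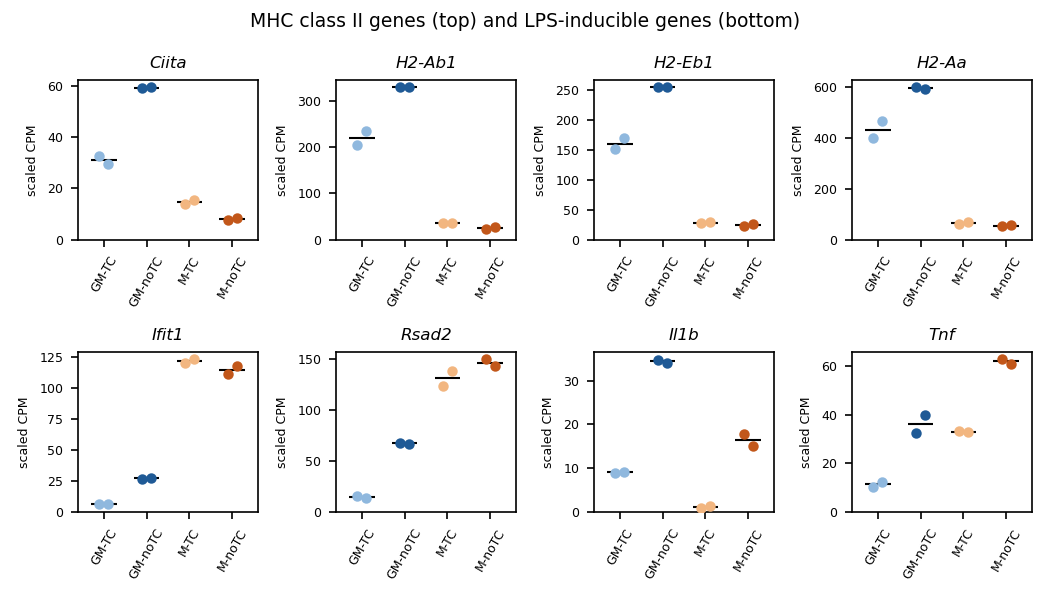
Level in each steady-state library (scaled CPM, linear y axis from 0) of 4 MHC class II genes (top row) and 4 LPS-inducible genes (bottom row). Points are the 2 libraries of a group and the bar is their mean. The class II genes are higher on noTC in GM and level or lower in M, and Ifit1 and Rsad2 are higher on noTC in GM at these levels, from which no share of other libraries was subtracted.

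MHC class I genes moved the other way, with 6 of 20 positive (30%) and none negative, beside 5.3% positive over all genes tested. B2m, the invariant light chain, measured 2708 and 3121 for GM-TC, 2187 and 2284 for GM-noTC, 1688 and 1641 for M-TC, and 1654 and 1778 for M-noTC, lower on noTC in GM (-0.38) and level in M, and its interaction of 0.43 (SE 0.0881, adjusted p = 0.0109) was lost without GM-noTC 1, M-TC 1, M-TC 2 or M-noTC 2 (highest adjusted p 0.0776). H2-Q7, H2-Q6 and H2-Q4 also passed (1.67 (SE 0.349, adjusted p = 0.0115), 0.97 (SE 0.205, adjusted p = 0.0121) and 0.46 (SE 0.0863, adjusted p = 0.00673)), but reads of these near-identical genes can be assigned to each other, and each value is uncertain for that reason. Their calls were lost without GM-noTC 2 or M-TC 2 (highest adjusted p 0.07) for H2-Q7, without GM-noTC 1, M-TC 2 or M-noTC 2 (highest adjusted p 0.0587) for H2-Q6 and without GM-noTC 1 (highest adjusted p 0.0555) for H2-Q4.

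The 56 genes that passed the test in both cell types with opposite signs, 0.54% of the members beside 0.535% of all genes tested, had a negative interaction in 35 cases and a positive one in 21. Of the negative ones, F13a1, the A subunit of clotting factor XIII, had the largest interaction of all genes. It measured 6.12 and 6.69 for GM-TC, 23 and 21.9 for GM-noTC, 4.08 and 4.01 for M-TC, and 1.42 and 2.19 for M-noTC, a rise in GM (1.8) against a fall in M (-1.12), and the interaction was -2.92 (SE 0.241, adjusted p = 2.69e-05). The LPS libraries gave -2.92. Thbs1, the matrix glycoprotein thrombospondin, measured 129.2 and 118.2 for GM-TC, 194.9 and 193.7 for GM-noTC, 19.8 and 17.7 for M-TC, and 9.96 and 9.68 for M-noTC, with an interaction of -1.59 (SE 0.106, adjusted p = 6.18e-06). Pde2a, a phosphodiesterase of cyclic nucleotides, measured 26 and 30.5 for GM-TC, 37.7 and 39.3 for GM-noTC, 19.8 and 20.1 for M-TC, and 7.7 and 7.87 for M-noTC. In this gene the fall in M was the larger part (-1.36 against 0.44 in GM), and the interaction of -1.8 (SE 0.129, adjusted p = 1.06e-05) was not seen after LPS (0.22, 3-way adjusted p 0.011). Kcnj10, a potassium channel, and Fam43a gave -1.6 (SE 0.163, adjusted p = 0.00012) and -1.79 (SE 0.208, adjusted p = 0.000285). Clec10a, a galactose-type lectin receptor of alternatively activated macrophages, measured 8.89 and 10.9 for GM-TC, 15.3 and 14.6 for GM-noTC, 18.7 and 16.9 for M-TC, and 8.08 and 9.83 for M-noTC (-1.57 (SE 0.178, adjusted p = 0.000251)).

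In the opposite direction, Npy, neuropeptide Y, measured 72.7 and 87.9 for GM-TC, 50.3 and 57 for GM-noTC, 50.3 and 49 for M-TC, and 101.8 and 97.8 for M-noTC. GM-noTC fell to the level of M-TC and M-noTC rose above both, an interaction of 1.59 (SE 0.124, adjusted p = 1.98e-05). Dio2, the deiodinase that makes active thyroid hormone, measured 428.5 and 345.3 for GM-TC, 210.1 and 225.5 for GM-noTC, 48.6 and 50.7 for M-TC, and 80 and 71.5 for M-noTC and kept its far higher level in GM on either dish (1.44 (SE 0.133, adjusted p = 6.05e-05)). Angptl2, a secreted angiopoietin-like protein, measured 27.2 and 29.3 for GM-TC, 18.3 and 19.6 for GM-noTC, 24.2 and 23.1 for M-TC, and 46.6 and 41.8 for M-noTC (1.48 (SE 0.117, adjusted p = 2.07e-05)). Rhov, a small GTPase, Tspan13, a tetraspanin, and Dcbld2, a membrane receptor, gave 1.57 (SE 0.178, adjusted p = 0.00024), 1.25 (SE 0.176, adjusted p = 0.0011) and 1.22 (SE 0.0973, adjusted p = 2.07e-05). Among the 12 genes with the largest interactions, 6 in each direction, the interaction kept its sign without any 1 library. The 2 separate dish effects that define opposite directions were less firm. In GM, Kcnj10 was at 0.44 (adjusted p = 0.0494) and Rhov at -0.48 (adjusted p = 0.0222), and with DESeq2 only 34 genes had opposite effects. Of the 56, 53 had the same sign in the LPS libraries and 40 of these also passed the test there, while the 3-way test passed for 9.

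**Figure D4:**
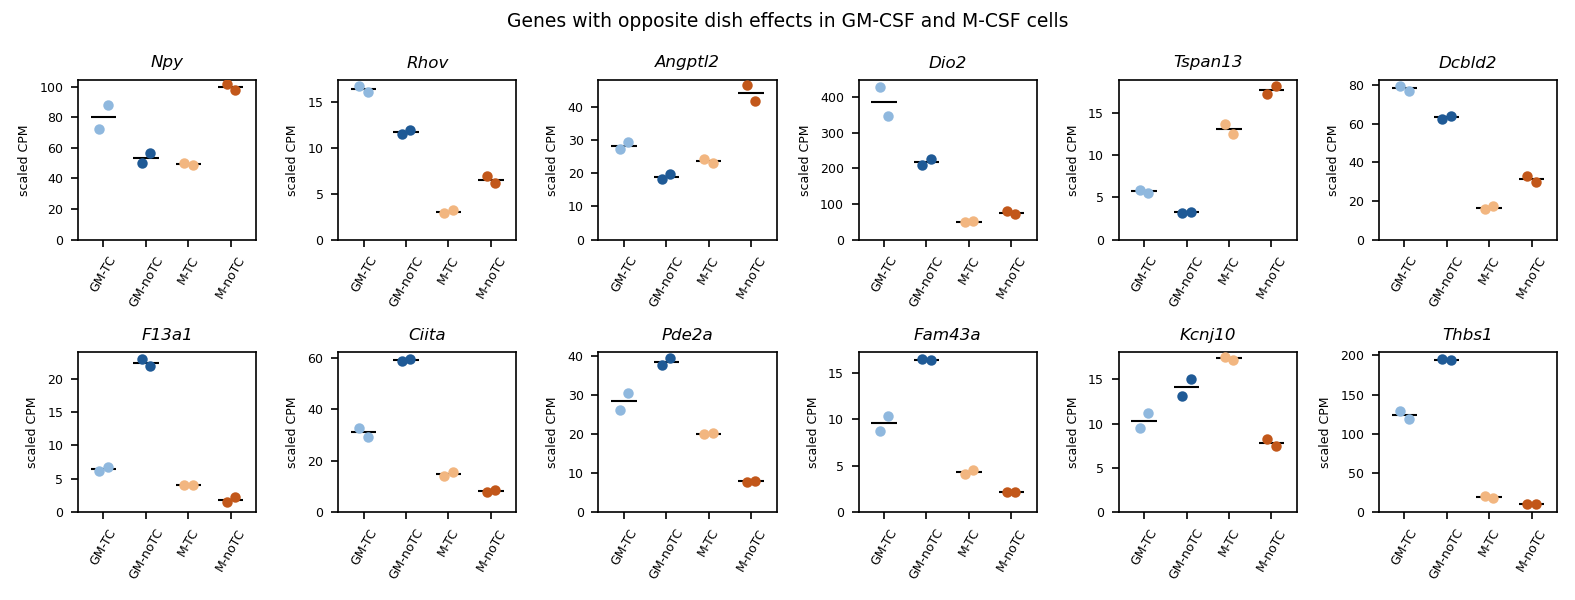
Level in each steady-state library (scaled CPM, linear y axis from 0) of the 12 genes with the largest interactions among those with opposite dish effects. Points are the 2 libraries of a group and the bar is their mean. In the top row noTC is lower than TC in GM and higher in M, and in the bottom row the order is turned in both cell types.

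Genes of scavenging and of clearing dead cells were among those that fell on noTC in M, 6 of 15 and 7 of 14 by the test in M, beside 11% of all genes tested. In the interaction, the alternative activation and scavenger list had 6 negative and 1 positive gene (median -0.45, and 10 calls with a median of -0.63 after subtraction), and the efferocytosis and C1q list also 6 negative and 1 positive (median -0.21). Mertk, a receptor kinase for apoptotic cells, measured 126.5 and 119.7 for GM-TC, 116.1 and 110.1 for GM-noTC, 63.9 and 62.2 for M-TC, and 23.6 and 29.6 for M-noTC, an interaction of -1.11 (SE 0.12, adjusted p = 0.000184). Stab1, a scavenger receptor, measured 20.5 and 19.2 for GM-TC, 22.8 and 21.6 for GM-noTC, 1235 and 1257 for M-TC, and 696.7 and 729.2 for M-noTC. Its fall on noTC passed the test in M (-0.81), and the interaction was -0.97 (SE 0.0824, adjusted p = 3.65e-05). C1qa, a chain of the first complement component, measured 31.4 and 39 for GM-TC, 40.8 and 39.9 for GM-noTC, 178.1 and 193.6 for M-TC, and 90.8 and 105.8 for M-noTC (-1.11 (SE 0.138, adjusted p = 0.000496)). Mrc1, the mannose receptor, gave -0.80 (SE 0.0977, adjusted p = 0.000453), and Maf, a transcription factor of resident macrophages, -0.73 (SE 0.114, adjusted p = 0.00213). The calls of Mertk, Stab1, C1qa, Mrc1 and Maf held without any 1 library. Among 19 macrophage identity genes, the median interaction was 0.003, with 10 positive estimates and 9 negative ones. By the test, 6 were negative and none positive. The negative ones included Adgre1, the gene of the F4/80 antigen, which rose in GM on noTC (0.30) and was at -0.14 in M. Without GM-TC 1 the list had 6 positive and 8 negative genes, and without M-TC 1 or M-noTC 1 it had 3 negative ones. Of 40 lysosomal genes, 3 passed in each direction (15%), Psap, the precursor of the saposins, at -0.35 (SE 0.0471, adjusted p = 0.000817) and the protease Ctsl at 0.46 (SE 0.0689, adjusted p = 0.00162).

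Some hypoxia-inducible genes had a dish effect past the test in GM and not in M. Egln3, an oxygen-sensing prolyl hydroxylase, measured 4.67 and 4.42 for GM-TC, 26 and 30.7 for GM-noTC, 3.14 and 1.63 for M-TC, and 3.01 and 4.01 for M-noTC, so that GM-noTC stood above all other libraries (-2.05 (SE 0.339, adjusted p = 0.00313)). Bnip3, a mitophagy receptor, measured 14.6 and 16.9 for GM-TC, 29.8 and 35.5 for GM-noTC, 16.9 and 15.1 for M-TC, and 17 and 18.7 for M-noTC (-0.89 (SE 0.159, adjusted p = 0.00511)), and Vegfa, the endothelial growth factor, 46.4 and 43.2 for GM-TC, 73.4 and 79.7 for GM-noTC, 98.1 and 88.6 for M-TC, and 89.4 and 94.4 for M-noTC (-0.79 (SE 0.1, adjusted p = 0.000545)). These genes were not typical of their list of 27, in which 2 passed as positive and 5 as negative with a median of 0.04, and which was higher on noTC in both cell types (median dish effect 0.28 in GM and 0.29 in M). Another negative gene of the list, P4ha2 (-1.36 (SE 0.216, adjusted p = 0.00236)), had the other pattern. Its fall on noTC passed the test in M (-0.93), and its GM estimate of 0.43 did not pass.

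Several immune response genes moved when the share of the other libraries was subtracted. Of 44 interferon stimulated genes, 9 had a negative interaction and 1 a positive one, but after subtraction 3 were negative and 3 positive. Ifit1, an antiviral RNA-binding protein, measured 6.24 and 6.39 for GM-TC, 26.8 and 27.4 for GM-noTC, 120.0 and 123.2 for M-TC, and 111.7 and 118.0 for M-noTC, with an interaction of -2.18 (SE 0.101, adjusted p = 4.55e-07). After subtraction this was -0.51 (adjusted p 0.023). Rsad2, the antiviral enzyme viperin, measured 15.8 and 13.9 for GM-TC, 67.8 and 66.3 for GM-noTC, 122.8 and 138.3 for M-TC, and 149.4 and 142.6 for M-noTC, and its interaction of -2.02 (SE 0.11, adjusted p = 1.34e-06) became -0.19 (adjusted p 0.438), with its dish effect in GM at 2.18 before and -0.08 after. Cmpk2 and Ifit2 went from -1.97 (SE 0.111, adjusted p = 1.46e-06) and -1.65 (SE 0.131, adjusted p = 2.07e-05) to -0.04 and -0.23, which did not pass. In the LPS libraries the interactions of Ifit1, Rsad2 and Cmpk2 were 0.06, 0.06 and 0.20, and the 3-way test passed for all 3. The interferon-stimulated response element, 2 GAAA repeats with 2 bases between them on either strand, was in 62.5% of 32 interferon stimulated genes beside 3.22% of the 8378 genes, and is shown in capitals for Ifit1 (chr19:34640639-34640938, plus strand).
Ifit1: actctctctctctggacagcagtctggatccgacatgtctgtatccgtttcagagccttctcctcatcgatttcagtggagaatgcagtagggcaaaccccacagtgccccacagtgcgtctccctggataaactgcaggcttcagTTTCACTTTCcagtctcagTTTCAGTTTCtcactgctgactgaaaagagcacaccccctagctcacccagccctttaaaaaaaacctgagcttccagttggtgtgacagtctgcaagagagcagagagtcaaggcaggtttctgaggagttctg

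Among 26 cytokines and chemokines, 5 were positive and 3 negative, which became 4 and 1 after subtraction. Il1b, the precursor of interleukin-1 beta, measured 8.89 and 9.15 for GM-TC, 34.8 and 34.1 for GM-noTC, 0.946 and 1.4 for M-TC, and 17.8 and 15 for M-noTC. It rose on noTC in both cell types and by more in M (1.85 (SE 0.23, adjusted p = 0.000496)), but after subtraction the interaction was 0.22 (adjusted p 0.885), and in the LPS libraries it was -0.70. Tnf measured 10.3 and 12.4 for GM-TC, 32.2 and 39.9 for GM-noTC, 33.3 and 32.6 for M-TC, and 63 and 61 for M-noTC and Cxcl2, a neutrophil-attracting chemokine, 2.65 and 2.71 for GM-TC, 13.6 and 12.6 for GM-noTC, 5.87 and 7.28 for M-TC, and 17.2 and 15.6 for M-noTC. Their interactions of -0.75 (SE 0.15, adjusted p = 0.00892) and -0.97 (SE 0.208, adjusted p = 0.0127), the second of which was lost without GM-noTC 1, M-TC 2 or M-noTC 2 (highest adjusted p 0.07), turned to 0.20 and 0.42 after subtraction, neither of which passed. Ccl2, which draws monocytes, measured 55.9 and 72.5 for GM-TC, 138.7 and 133.0 for GM-noTC, 3.98 and 4.57 for M-TC, and 26.7 and 22.7 for M-noTC, and kept its positive interaction, 1.44 (SE 0.199, adjusted p = 0.000973) and 1.21 after subtraction. Il1rn, the interleukin-1 receptor antagonist, likewise gave 0.99 (SE 0.112, adjusted p = 0.00024) and 0.74. Of 28 NF-kB targets, 8 were negative and 3 positive, with Nfkbiz, a nuclear regulator of NF-kB, at -1.3 (SE 0.158, adjusted p = 0.000414), or -0.77 after subtraction (adjusted p 0.0168, with the dish effect in GM going from 0.82 to 0.16), and Cd83 at -0.97 (SE 0.149, adjusted p = 0.002) on the negative side and Plaur, the urokinase receptor, at 0.91 (SE 0.0996, adjusted p = 0.000199) on the positive side. Immediate early genes had 7 positive and 1 negative of 24, against 1 positive and 9 negative in the LPS libraries. Myc measured 30.8 and 30.1 for GM-TC, 39.7 and 39.7 for GM-noTC, 4.48 and 6.77 for M-TC, and 17.9 and 20 for M-noTC and Egr2, a zinc finger factor, 145.7 and 140.8 for GM-TC, 159.0 and 152.9 for GM-noTC, 6.37 and 7.14 for M-TC, and 16.7 and 13.9 for M-noTC. Myc was at 1.37 (SE 0.175, adjusted p = 0.000605) and Egr2 at 1.04 (SE 0.128, adjusted p = 0.00046), and both differed from the LPS libraries, where the interactions were -0.75 and -0.20 (3-way adjusted p 3.08e-05 and 0.000579).

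Of 25 genes that the study names at steady state, 16 reached the CPM minimum, and 13 of these were called, 8 positive and 5 negative. They were picked by the study on these samples, so their number is not independent evidence, and 10 were called after subtraction. The positive ones were the replication genes Cdc6, Orc1, Mcm4, Mcm5, Mcm10, Pole and Lig1 together with Il1b, and the negative ones were Tnf, Cxcl2 and the 3 class II chains. Fn1, fibronectin, measured 488.9 and 366.0 for GM-TC, 1381 and 1342 for GM-noTC, 2.24 and 1.91 for M-TC, and 12.8 and 11.3 for M-noTC, higher on noTC in both cell types, and its interaction of 0.85 (SE 0.259, adjusted p = 0.0621) missed the test and was 0.24 after subtraction (adjusted p 0.677). Mmp9 rose alike in both, by 1.26 in GM and 1.32 in M, with an interaction of 0.06 (SE 0.307, adjusted p = 0.941) and an SE of 0.307. Il6, Cxcl1 and Cxcl10 were below the minimum in at least 1 TC group, and the 5 heart genes named were below it on noTC. The remaining lists were short or held few calls, and are set beside 10.5% called over all members. NRF2 antioxidant genes had 1 of 20 (5%). Dendritic cell genes had 1 positive and 3 negative of 11 (36.4%), and stromal and matrix genes 2 and 2 of 5 (80%). Mast cell and basophil genes had 1 of 2, and the lymphoid and the heart lists none of 1 and 3.

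Over all interaction genes, 1084 were tested in the LPS libraries and 894 of them (82.5%) had the same sign there, beside 6466 of 10323 members (62.6%). In the LPS libraries alone the interaction passed for 1393 members, 547 positive and 846 negative (12.6% of the genes tested there, 4.98% positive), a split that was 979 and 510 when libraries were scaled by size only. The genes called in both states numbered 440 with the same sign and 29 with opposite signs. The 3-way test, which compares the interaction at steady state with that after LPS, passed for 302 members, 236 higher and 66 lower at steady state (2.61% of all genes tested), and for 148 of the 1088. The 1088 were called on steady-state libraries that this test also uses, so their share can be raised by that choice. The same holds for smaller LPS values of single genes named for their steady-state interaction. With library size only it passed for 103 and 145, and the median of all members moved from 0.04 to -0.09.

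**Figure D5:**
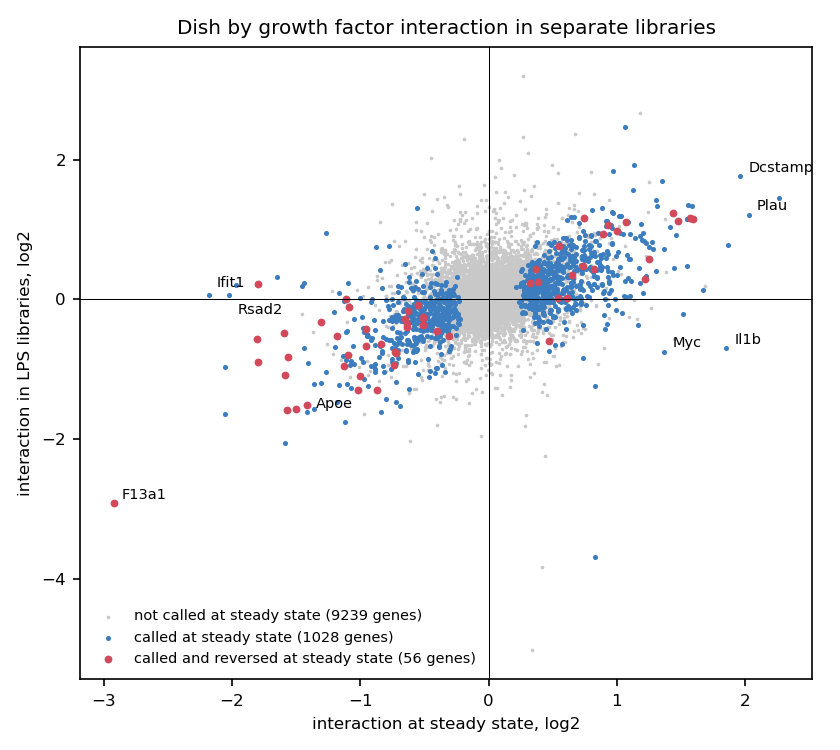
Interaction at steady state (x axis) against the interaction in the LPS libraries (y axis), both log2 and each from its own 8 libraries, for 10323 genes. Most blue and red points, the genes called at steady state (1084), keep their sign (894), F13a1 has the same value in both, and Ifit1, Rsad2, Il1b and Myc do not keep theirs.

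The number of genes called depended on the libraries. Without GM-TC replicate 1 it was 2928 and without GM-TC replicate 2 it was 1912. It fell to 481 and 510 without GM-noTC replicates 1 and 2, to 536 and 521 without M-TC replicates 1 and 2, and to 447 and 587 without M-noTC replicates 1 and 2. In each of these fits the lone library of a group is assumed to vary like the other groups, and 369 of the 1088 genes were called in all 8. Across these fits, positive and negative calls together numbered 31 to 52 for the replication list, 12 to 40 for the mitotic list, 5 to 7 for MHC class II, 1 to 11 for MHC class I, 0 to 12 for sterol synthesis, 4 to 17 for NF-kB targets, 6 to 19 for interferon stimulated genes, 5 to 12 for cytokines, 8 to 25 for integrins and adhesion, 3 to 21 for lysosomal genes, 5 to 20 for the hypoxia list, 8 to 19 for the ATF4 list, 5 to 11 for fatty acid synthesis, 2 to 8 for the PPARgamma list, 4 to 7 for the osteoclast list, 4 to 10 for alternative activation, 6 to 11 for efferocytosis, 6 to 12 for immediate early genes and 11 to 14 for the genes the study names. The lowest counts came without a GM-noTC, M-TC or M-noTC library and the highest without a GM-TC library. Near the CPM minimum, Ccl7, a monocyte chemokine, fell just outside at a lowest group mean of 0.9997 CPM and Aunip just inside at 1.001 CPM.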

How the data were processed

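RNA-seq libraries were made from cultured cells, 2 per group, 16 in all. The authors deposited estimated counts (expected counts) for 22287 genes and per the labels used fastp 0.18.0, Bowtie2 2.2.8, HISAT2, StringTie 1.3.1 and RSEM. The genome build is not given in the sources used here. The study calls the 2 libraries of a group biological replicates, and whether they came from separate mice is not given there, so p-values measure only the spread between these libraries. Between 6.56% and 8.19% of the values per library were not whole and were rounded. The fit used edgeR 4.0.16 (filterByExpr, TMM, quasi-likelihood test, group as the only term) on the 8 steady-state libraries in R 4.3.3, with Benjamini-Hochberg adjustment over 12142 genes, and genes were called at an adjusted p under 0.05. Total counts ranged from 17527802 to 31458363, which limits counting error only. Printed levels are CPM after TMM scaling, while the minimum of 1 CPM and summed list levels used library size only. A second fit of the 8 LPS libraries and a 3-way contrast over all 16 were set beside it. The share seen in noTC libraries was estimated for each growth factor apart. Genes were used when under 1 CPM in both of its TC libraries without LPS and at a mean of 100 CPM or more over 10 other libraries. These were the 8 LPS libraries and the 2 noTC libraries of the other growth factor without LPS. The median share times the mean of those 10 libraries was subtracted. Alternatives were DESeq2 1.42.0, other scalings, filters, thresholds, a replicate block and leaving out each library. The code of the test was checked on simulated data, and no result here rests on that check. Replicate numbers did not pair the libraries (correlation of deviations -0.0522 to 0.0311). Members and lists were chosen with earlier results of these data known. Genes were named when they had the 10 largest interactions in each direction (groups not overlapping in at least 1 cell type, no Gm or Rik symbols), the 6 largest opposite dish effects in each direction, the 4 largest called values of a list, or a mention by the study. The text describes some of the genes that met this rule, chosen with their values known, and others are not reported here. Promoters were printed for called named genes with a match and the lowest adjusted p.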

Additional observations from a re-analysis of the deposited data

Results flagged for a closer look

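For 1088 genes the dish effect differed between GM and M, for 56 of them with opposite directions, and for 302 genes the interaction differed between steady state and LPS, each by a test of the difference itself. The opposite dish effects with the largest interactions (log2) were 1.59 for Npy, 1.57 for Rhov, 1.48 for Angptl2, 1.44 for Dio2, 1.25 for Tspan13 and 1.22 for Dcbld2 on the positive side, and -2.92 for F13a1, -1.80 for Ciita, -1.80 for Pde2a, -1.79 for Fam43a, -1.60 for Kcnj10 and -1.59 for Thbs1 on the negative side. Of 33 heart and muscle genes, 3 reached the CPM minimum and none was called. The sum over all 33 was 410.3 and 348.3 CPM in GM-TC and 455.1 and 402.1 CPM in M-TC, above the 309.0 to 330.9 CPM of the noTC libraries.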

How the results depend on the processing

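The 1088 calls became 1040 with library size only, 1081 with DESeq2 size factors, 1577 with no expression filter, 1310 with all 16 libraries, 763 with DESeq2, 979 at a CPM minimum of 5 and 1042 after subtraction, of which 1020 were among the 1088. A log2 size of 1 or more left 122 interaction genes, 48 dish effects in GM, 172 in M and 1 gene with opposite effects. At an unadjusted p under 0.05 with a fold above 2, as in the methods of the study, the same counts were 146, 49, 172 and 1. Without an expression filter the GM dish effect passed for 1135 genes and opposite effects for 117, and with DESeq2 opposite effects for 34. The cause of these shifts was not tested beyond the stricter size limit itself. Leaving out each library gave 447 to 2928 interaction genes, 159 to 2559 in GM, 1519 to 4412 in M and 14 to 426 with opposite effects. Subtraction turned the sign of Tnf (0.20), Cxcl2 (0.42) and Fstl1 (-0.084), none past the test. Among genes never called, leaving out 1 library turned the sign of Mmp9 (-0.10 to 0.22), Cxcl1 (-1.73 to 0.12), Csrp3 (-1.24 to 0.48), Actn2 (-0.53 to 2.44) and Actc1 (-2.71 to 0.15). A count of 3 is at most 0.171 CPM, so depth limits few members, while 2 libraries per group left 4 residual degrees of freedom.

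The replicate block gave 1078 interaction genes (1022 of the 1088), 620 in GM, 2871 in M and 59 with opposite effects. The labels share replicate numbers, but deviations of same-numbered libraries did not correlate (-0.0522 to 0.0311), so the numbers were not taken as pairs, and the block changed the call of 1 named gene, Fn1, which then passed (0.85, adjusted p = 0.016), whereas after subtraction it was at 0.24 (adjusted p = 0.677).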
